A study of Rattus norvegicus with 18 samples.

Results

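The genes described here are the chemokine receptor gene Cxcr3 and the genes of its 3 ligands, Cxcl9, Cxcl10 and Cxcl11, in the blood of procainamide-treated and control rats. They were found by matching the accession of each array probe to RefSeq, which gave 1 probe for each gene, printed as 2 spots per array. They are 4 of the 13652 named genes that were tested. The genes were chosen by their log2 ratio of sample over reference on these arrays, with their drug responses known, so these responses are given as descriptions without a test. The animals were male rats of the inbred Brown Norway (BN) strain and of the Sprague Dawley (SD) strain, which is outbred. They received procainamide, a heart rhythm drug known for causing lupus-like autoimmunity, at 40 mg/kg, or sterile water, and the series asks how strains differ in developing the autoimmunity it induces. Rats given sterile water are the controls, and where they are called untreated below this means without the drug. Each BN group had 4 arrays and each SD group 5. Blood was taken from the venous sinus of the eye, and total RNA was hybridised to 2-colour arrays. On each array the Cy5 dye carried the sample and the Cy3 dye a reference, which by the labels was control replicate 1 of the same strain. Whether every array stands for its own animal is not stated in the labels, so errors and p-values describe only the scatter of these samples, which may be technical.

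CXCR3 is a receptor on activated T cells and NK cells, and its ligands draw these cells into inflamed tissue. The 3 ligands are made by monocytes, macrophages, endothelium and other cells, and they are classical products of interferon gamma. The receptor gene itself is switched on in T cells by the Th1 factor T-bet (Tbx21). Cxcl9 depends most strictly on interferon gamma, whereas Cxcl10 and Cxcl11 also respond to type I interferons and NF-kB. In whole blood RNA a change can come from fewer or more cells of a type or from less or more RNA per cell, and these cannot be told apart.

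All 4 probes were well above background in both dyes on all 18 arrays. The median Cy5 spot signal of an array lay between 997 and 3187, and 73.5% to 87.2% of probes were well above background. All 5 SD controls shared slide 1 with 3 treated SD arrays. The remaining 2 treated SD arrays shared slide 2, scanned on another day, with the 4 BN controls, and all 4 treated BN arrays were on slide 3. Slide and drug therefore cannot be told apart in BN. On BN control 1, where by the labels both dyes held the same RNA, log2 ratios over all probes had an SD of 0.409, within the 0.333 to 0.459 of the other BN controls. The same holds for SD control 1, with an SD of 0.252, within the 0.205 to 0.285 of the other SD controls. On BN control 1 and SD control 1 the log2 ratio of Cxcl9 was -0.022 and -0.56, and that of Cxcl11 was 0.35 and -0.12. Blood cell markers were present: 13 of 14 T cell, 14 of 14 NK cell, 11 of 11 monocyte, 10 of 10 neutrophil, 5 of 5 B cell and 5 of 5 erythroid marker genes with a probe were above background on every array, and so were 7 of 7 endothelial markers.

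The DNA just before each gene is shown first, because the ligand genes are textbook targets of interferon and NF-kB and the results turn on how differently they moved. Cxcl11, Cxcl10 and Cxcl9 are direct neighbours on chromosome 14, in that order, and Cxcr3 lies on the X chromosome. The sequences are the 250 bases before the annotated start in RefSeq's GRCr8 build, 5′ to 3′ on the gene's strand, which was found for 4 of 4 genes. Capitals mark matches on either strand to the interferon-stimulated response element (ISRE, here GAAA, any 2 bases and GAAA again), the gamma-activated site (GAS, TTCNNNGAA) and the NF-kB consensus. Matches of the NF-kB motif may overlap each other. The T-box half-site TCACACC, the letters bound by T-bet's family, was searched too and had no match in the 4 windows.
Cxcl9: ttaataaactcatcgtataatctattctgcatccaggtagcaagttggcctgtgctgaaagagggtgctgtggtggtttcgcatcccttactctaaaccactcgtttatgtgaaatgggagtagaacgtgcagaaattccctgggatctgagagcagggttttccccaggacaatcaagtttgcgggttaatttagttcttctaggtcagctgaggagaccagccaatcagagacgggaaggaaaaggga
Cxcl10: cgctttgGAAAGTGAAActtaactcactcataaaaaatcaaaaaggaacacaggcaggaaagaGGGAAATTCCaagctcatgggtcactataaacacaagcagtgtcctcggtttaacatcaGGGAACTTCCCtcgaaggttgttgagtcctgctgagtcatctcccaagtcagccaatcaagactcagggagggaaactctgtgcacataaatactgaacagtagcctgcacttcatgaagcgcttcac
Cxcl11: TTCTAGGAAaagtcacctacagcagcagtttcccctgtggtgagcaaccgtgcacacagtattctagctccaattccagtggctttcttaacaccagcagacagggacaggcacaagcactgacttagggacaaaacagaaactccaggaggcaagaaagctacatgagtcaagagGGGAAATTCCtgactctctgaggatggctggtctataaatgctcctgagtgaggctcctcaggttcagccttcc
Cxcr3: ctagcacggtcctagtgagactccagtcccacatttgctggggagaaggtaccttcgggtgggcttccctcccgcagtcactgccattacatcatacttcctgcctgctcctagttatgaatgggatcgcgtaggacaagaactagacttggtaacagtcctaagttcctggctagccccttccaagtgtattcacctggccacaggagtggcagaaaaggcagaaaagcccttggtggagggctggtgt
The windows are chr14:16006916-16007165, chr14:15988816-15989065 and chr14:15973478-15973727 on the plus strand and chrX:70886945-70887194 on the minus strand.

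Cxcl10 held 1 ISRE match, 243 to 234 bases before its start, and 3 NF-kB matches, of which 1 lay at 187 to 178 bases and 2 overlapped on opposite strands at 128 to 118 bases. Cxcl11 held 1 GAS match at the edge of the window, 250 to 242 bases before the start, and 1 NF-kB match at 74 to 65 bases. The windows of Cxcl9 and Cxcr3 held none of the 4 motifs, which says only that these letters are not in these 250 bases. Of 33465 promoter windows of the same length, 3.41% held the ISRE letters, 7.67% the GAS letters, 6.33% the NF-kB consensus and 3.22% the T-box half-site.

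**Figure D1:**
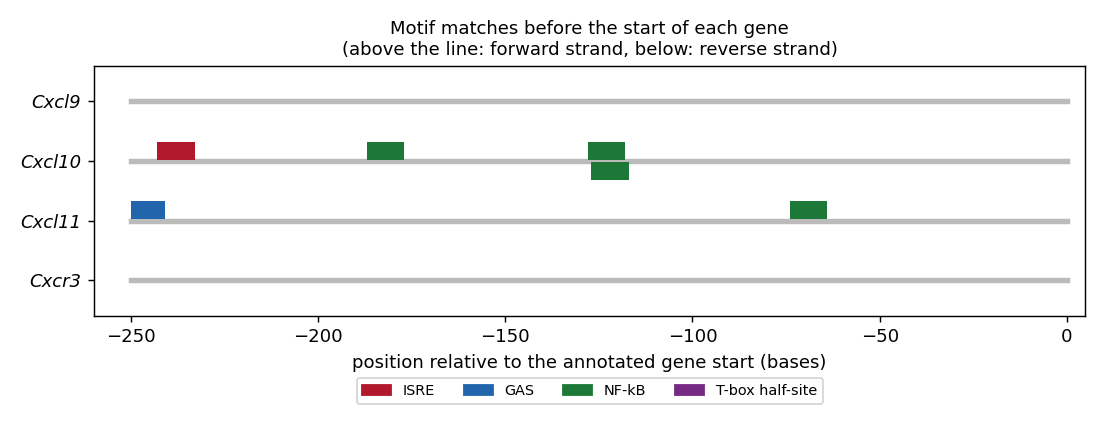
Motif matches in the 250 bases before the annotated start of each gene, with the distance from the start on the x axis in bases and coloured boxes for matches on the forward strand (above the line) and the reverse strand (below). Cxcl10 has 4 matches and Cxcl11 has 2, while Cxcl9 and Cxcr3 have none, and the T-box half-site listed in the key is found in no window.

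Cxcl9 had by far the largest response of the 4 genes in both strains. Its log2 ratio of sample over reference was -0.022, -0.14, -0.89 and 0.40 on BN control arrays 1 to 4, and 2.57, 3.47, 2.83 and 3.02 on BN procainamide arrays 1 to 4. Every treated BN array stood at least 2.17 above every control array. The difference was 3.14 ± 0.32 (log2, SE, 4 against 4 arrays), or 8.79-fold, which is rank 5 of the 13652 named genes ordered from the largest rise down.

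In SD the log2 ratio of Cxcl9 was -0.56, -0.33, 0.51, 0.028 and 0.061 on control arrays 1 to 5, and 2.14, 2.53, 1.37, 1.55 and 2.77 on procainamide arrays 1 to 5. The groups were again apart, by 0.86, although treated arrays 3 and 4 were well below the other 3. The difference was 2.13 ± 0.28 (SE, 5 against 5 arrays), or 4.38-fold, rank 4 of the same genes. On slide 1 alone, with 3 treated and 5 control arrays, it was 2.07 ± 0.29.

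Cxcl10, the ligand once named IP-10 for its induction by interferon gamma, was higher by a smaller amount. Its log2 ratio was -0.17, 0.074, -0.42 and -0.22 on the BN control arrays, and 0.43, 1.16, 0.99 and 0.65 on the BN procainamide arrays. The lowest treated array lay 0.36 above the highest control array, and the difference was 0.99 ± 0.15 (SE), 1.99-fold. Between the BN arrays of slides 2 and 3 this difference lay in the reference dye and not in the sample dye (dye by dye values follow).

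In SD the log2 ratio of Cxcl10 was -0.014, -0.40, -0.043, 0.039 and -0.018 on the control arrays, and 0.27, 0.56, 0.44, 0.41 and 0.55 on the procainamide arrays. These groups were apart by 0.23. The difference was 0.53 ± 0.13 (SE), 1.45-fold, and 0.51 ± 0.12 on slide 1 alone.

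Cxcl11, the ligand with the strongest binding to the receptor, gave the smallest responses and its groups overlapped. The log2 ratio was 0.35, 0.11, -0.54 and 0.0030 on the BN control arrays, and 0.34, 0.63, 0.85 and 0.80 on the BN procainamide arrays. BN control 1 stood just above the lowest treated array, and on that control array the 2 spots of the probe differed by 0.69, the widest gap of any member spot pair. The difference was 0.67 ± 0.18 (SE), 1.59-fold, and 0.50 without BN control 3, the lowest array. With array brightness as a term it was 0.37 ± 0.23.

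In SD the log2 ratio of Cxcl11 was -0.12, 0.060, 0.22, -0.034 and -0.18 on the control arrays, and 0.43, 0.70, 0.13, 0.085 and 0.62 on the procainamide arrays. Treated arrays 3 and 4, the arrays that were low for Cxcl9, fell below the highest control array. The difference was 0.41 ± 0.16 (SE), 1.33-fold, and 0.43 ± 0.14 on slide 1 alone.

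The receptor gene Cxcr3 was higher after procainamide by about as much as Cxcl11 and Cxcl10 were. Its log2 ratio was 0.017, 0.073, -0.33 and 0.038 on the BN control arrays, and 0.72, 0.80, 0.77 and 0.67 on the BN procainamide arrays. The treated BN arrays were the tightest group of any member, with an SD of 0.055 over 4 arrays, and lay 0.60 clear of the controls. The difference was 0.79 ± 0.11 (SE), 1.73-fold, and 0.70 without BN control 3, the lowest control.

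In SD the log2 ratio of Cxcr3 was -0.028, 0.0059, 0.33, -0.18 and -0.18 on the control arrays, and 0.29, 0.61, 0.44, 0.47 and 0.54 on the procainamide arrays. SD control 3 reached above the lowest treated array, so that 4 of 5 treated arrays exceeded every control. The difference was 0.48 ± 0.10 (SE), 1.40-fold, and 0.46 ± 0.13 on slide 1 alone.

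Over the 4 genes, 3 had BN groups that did not overlap (Cxcl9, Cxcl10 and Cxcr3), all with higher values after the drug, where 8.18% of named genes did so. In SD 2 did (Cxcl9 and Cxcl10), where 4.37% of named genes did. Because the genes were chosen with these responses in view, nothing is read from these counts. The median response of all named genes was -0.019 in BN and -0.0073 in SD. A fit with scan day as a term, which rests on the 2 SD procainamide arrays of slide 2, gave BN responses of 3.28 ± 0.54 for Cxcl9, 1.05 ± 0.24 for Cxcl10, 0.60 ± 0.30 for Cxcl11 and 0.85 ± 0.19 for Cxcr3.

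**Figure D2:**
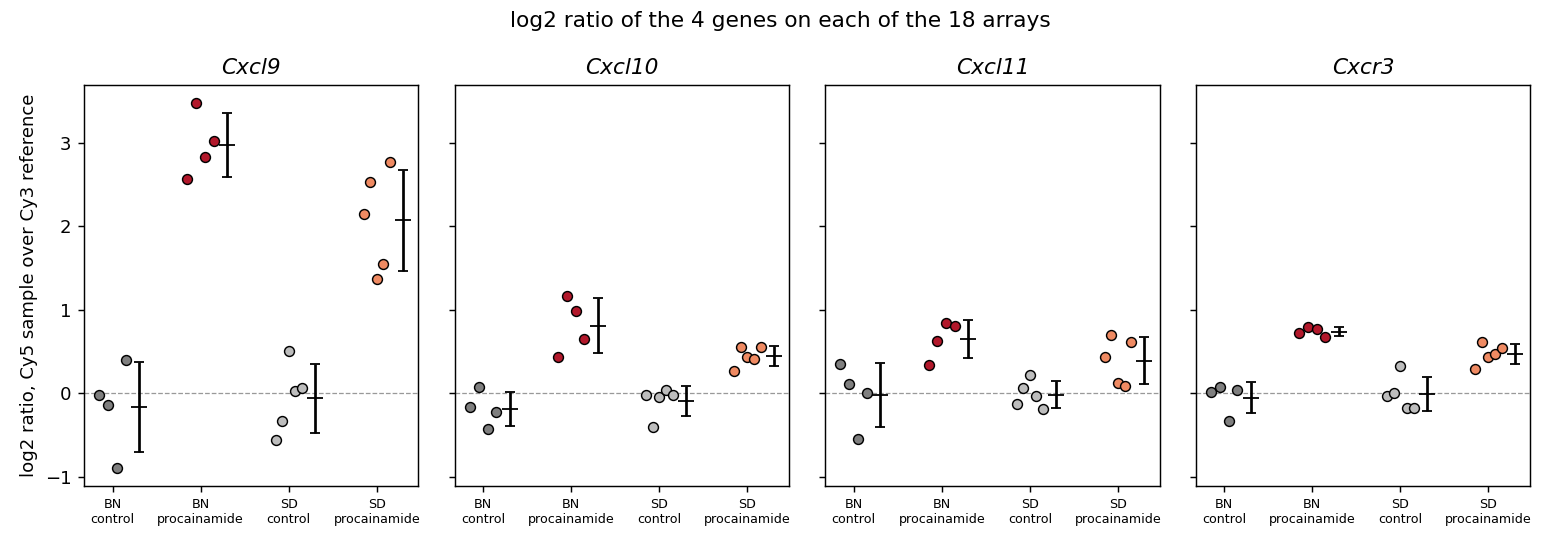
The log2 ratio of sample over reference (y axis) of the 4 genes in the 4 groups, with 1 point per array and, beside each group, its mean and SD. Cxcl9 stands far above its controls in both strains (BN 2.57 to 3.47, SD 1.37 to 2.77 on treated arrays), while the other 3 genes stay at or below 1.16 on every array.

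Taken one dye at a time, the genes did not split in the same way in both strains. In BN, where drug cannot be told apart from slide, Cy3 was lower on treated arrays for all 3 ligands and higher for the receptor. In SD the Cy3 difference was negative for Cxcr3 as for Cxcl9 and Cxcl11, and slightly positive for Cxcl10. By the labels the Cy3 dye held the same RNA on every array of a strain, so a Cy3 level, normalized by loess within arrays and by Aquantile between them, would be the same on control and treated arrays. For Cxcl9 it was not. Its log2 Cy3 level was 14.49, 14.51, 14.63 and 14.40 on BN control arrays and 13.52, 12.85, 13.39 and 12.93 on BN procainamide arrays. It was lower on every treated array, by 1.33 ± 0.16 in log2 (SE), the 9th lowest Cy3 difference of the 13652 named genes. Before any normalization the Cy3 spot signal of Cxcl9 was 18038 to 20407 on the BN control arrays and 6024 to 10912 on the treated ones, while the array medians of Cy3 were 1509 to 1904 and 1681 to 2059.

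In SD the Cy3 level of Cxcl9 was also lower on all treated arrays, by 0.87 ± 0.14 in log2 (SE), the 3rd lowest of the named genes. The sample dye moved the other way. In Cy5 alone Cxcl9 was higher on treated arrays by 1.80 ± 0.22 in BN (3.48-fold) and by 1.26 ± 0.19 in SD (2.40-fold), without overlap in either strain, as for 16.3% and 4.39% of named genes. The ratio thus holds a Cy5 part and a Cy3 part, and the Cy5 part was the larger in both strains.

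For Cxcl10 in BN the Cy3 dye carried the whole difference between the control arrays on slide 2 and the treated arrays on slide 3. Its log2 Cy3 level was 13.79, 13.78, 13.98 and 13.78 on the BN control arrays and 12.97, 12.65, 12.70 and 12.85 on the treated ones. This is a fall of -1.04 ± 0.12, the 45th lowest of the named genes. Its log2 Cy5 level was 13.62, 13.86, 13.56 and 13.56 on the control arrays and 13.40, 13.81, 13.69 and 13.50 on the treated arrays. In the sample dye these BN groups overlapped and differed by -0.049 ± 0.15, which is 0.056 ± 0.16 when arrays are only centred on their medians. This split by dye cannot be told apart from slide. Among treated SD arrays, those on slide 2 read higher for Cxcl10 than those on slide 1 in both dyes. Their means were 13.85 against 13.30 in Cy5 and 13.37 against 12.87 in Cy3.

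Over all SD arrays the rise of Cxcl10 lay in Cy5 (0.62 ± 0.13, 1.53-fold, no overlap) and not in Cy3 (0.081 ± 0.10). This includes the 2 treated arrays of slide 2. On slide 1 the 3 treated arrays had mean Cxcl10 levels of 13.30 in Cy5 and 12.87 in Cy3. The SD controls, all on that slide, had 12.90 and 12.99. For Cxcl11 the Cy3 difference was -0.15 ± 0.060 in BN and -0.12 ± 0.053 in SD, and the Cy5 difference 0.53 ± 0.15 and 0.29 ± 0.13. For Cxcr3 the Cy3 difference was 0.13 ± 0.070 in BN and -0.19 ± 0.062 in SD, and the Cy5 difference 0.93 ± 0.12 (1.90-fold, no overlap) and 0.29 ± 0.11. On slide 1 the mean Cy3 level of Cxcr3 was 13.45 on treated SD arrays and 13.52 on SD controls.

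The reference moved in other genes as well. In BN the Cy3 level of treated arrays lay entirely below that of control arrays for 14.8% of named genes and entirely above it for 38.2%, and in SD for 2.75% and 2.45%. Cxcl9, Cxcl10 and Cxcl11 were among the lower ones in BN and Cxcr3 among the higher ones, and Cxcl9 was among the lower ones in SD. Of the 1225 named genes called higher by their ratio in BN, 22% had such a lower Cy3 level, and of the 195 in SD 21.5% did. What moved the reference was not tested. In BN its shift cannot be told apart from slide and scan day, whereas in SD all controls shared slide 1 with 3 treated arrays.

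**Figure D3:**
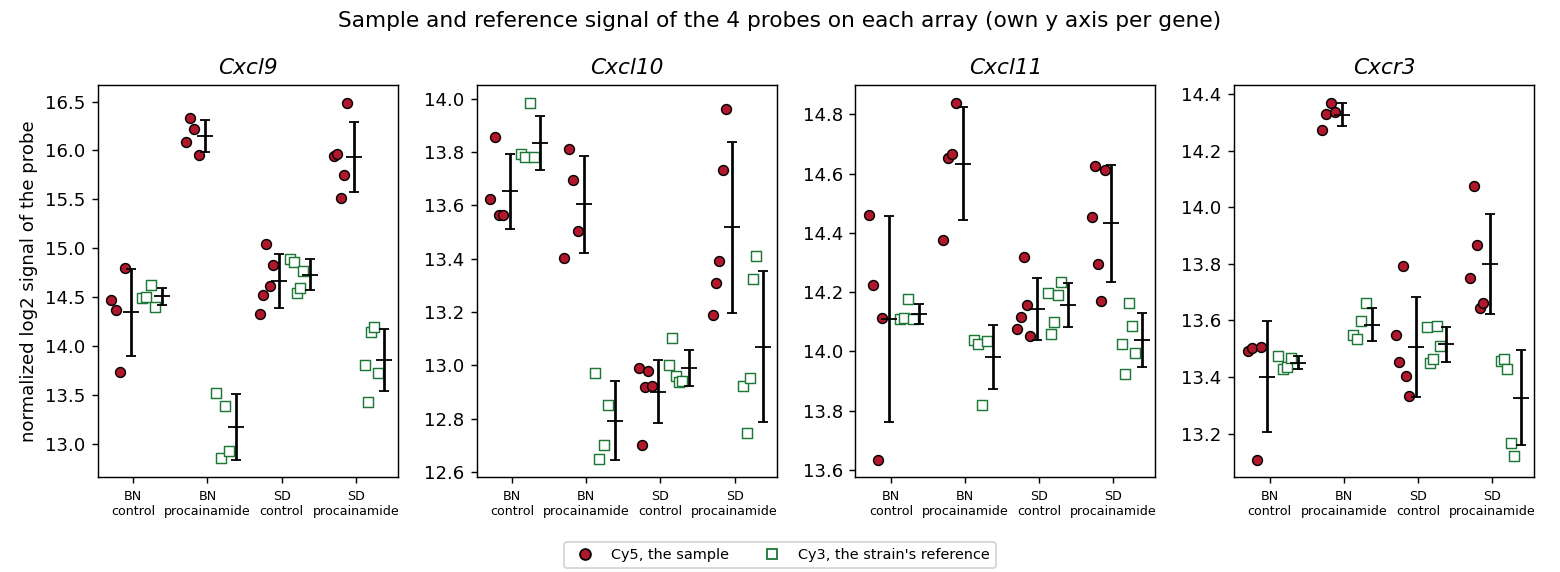
Normalized log2 signal (y axis, a different scale for each gene) of the sample dye Cy5 (filled circles) and the reference dye Cy3 (open squares) on each array, by group, with mean and SD. Cxcl9 moves up in Cy5 and down in Cy3 on treated arrays, whereas in BN Cxcl10 differs in Cy3 only, from 13.83 to 12.79 on average. The BN control and treated arrays were on different slides.

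The comparison of ligands with the receptor asks whether a ligand's log2 ratio rose beyond that of Cxcr3 on the same array. Only differences of ratios are compared, since levels of different probes are not on one scale. For Cxcl9 the difference from Cxcr3 was -0.038, -0.22, -0.56 and 0.36 on BN control arrays, and 1.84, 2.68, 2.05 and 2.35 on BN procainamide arrays. It was -0.53, -0.34, 0.18, 0.20 and 0.24 on SD control arrays and 1.85, 1.92, 0.93, 1.08 and 2.22 on SD procainamide arrays. No treated array reached down to a control array in either strain.

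The response of Cxcl9 therefore exceeded that of Cxcr3 by 2.35 ± 0.26 in log2 in BN (SE, 5.08-fold) and by 1.65 ± 0.30 in SD (3.14-fold), and by 1.62 on slide 1 alone. Measured in the same way, 0.176% of named genes had treated arrays entirely above control arrays in BN and 0.132% in SD, shares that count Cxcl9 itself and any size of gap. In Cy5 alone the excess of Cxcl9 was smaller, 0.88 in BN and 0.97 in SD.

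Cxcl10 and Cxcl11 did not separate from the receptor. The response of Cxcl10 minus that of Cxcr3 was 0.20 ± 0.15 in BN and 0.053 ± 0.13 in SD, with overlapping groups. That of Cxcl11 was -0.12 ± 0.17 and -0.075 ± 0.12, also with overlap. In Cy5 alone the response of Cxcl10 was 0.97 lower than that of Cxcr3 in BN (a difference of -0.97) and 0.32 higher in SD. The BN value cannot be told apart from slide, and the SD value includes the 2 treated arrays of slide 2. The mean of the 3 ligands exceeded Cxcr3 by 0.81 ± 0.14 in BN and 0.54 ± 0.15 in SD, which rests on Cxcl9.

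**Figure D4:**
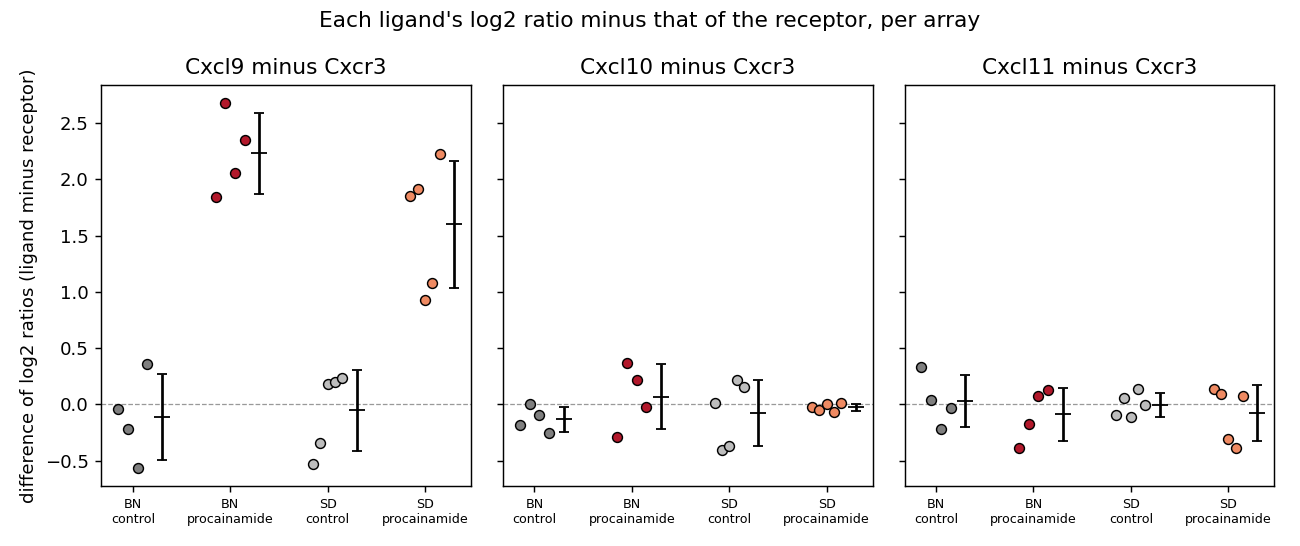
Log2 ratio of each ligand minus the log2 ratio of Cxcr3 on the same array (y axis), by group, with 1 point per array and the group's mean and SD. Cxcl9 lies at 0.93 to 2.68 on treated arrays of both strains and at 0.36 or below on control arrays, while Cxcl10 and Cxcl11 scatter around 0 in every group.

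All 4 ratios responded more in BN than in SD, but the errors of the differences were wide. The BN response minus the SD response was 1.00 ± 0.43 (SE) for Cxcl9 and 0.46 ± 0.20 for Cxcl10. It was 0.27 ± 0.24 for Cxcl11 and 0.31 ± 0.15 for Cxcr3. These are descriptions without a test, because the genes were chosen by these ratios. For Cxcl11 the difference was 0.091 without BN control 3. In Cy5 alone the strain difference of Cxcl9 was 0.54 ± 0.29, and 0.35 ± 0.29 when arrays were only centred on their medians. In Cy5 alone Cxcl10 responded less in BN than in SD, by -0.66 ± 0.19, and Cxcr3 responded more, by 0.63 ± 0.16. These Cy5 values cannot be told apart from slide, since slide 2 held all BN controls and 2 treated SD arrays. Among treated SD arrays, slide 2 read higher in Cy5 than slide 1 for Cxcl10 (means 13.85 and 13.30) and lower for Cxcr3 (13.65 and 13.90). With array brightness as a term the strain differences of the ratios were 0.65 ± 0.61 for Cxcl9, 0.19 ± 0.26 for Cxcl10, -0.15 ± 0.31 for Cxcl11 and 0.19 ± 0.21 for Cxcr3. Of all named genes 10.7% were called different between strains by limma, and none of the 26496 probes when scan day was added as a term (1535 at an unadjusted p under 0.05).

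Levels in the sample dye order the 4 groups for each gene. The log2 Cy5 level of Cxcl9 was 16.15 ± 0.16 (SD, n = 4) in BN procainamide, 15.93 ± 0.36 (n = 5) in SD procainamide, 14.67 ± 0.28 (n = 5) in SD control and 14.34 ± 0.44 (n = 4) in BN control. Both treated groups lay above both control groups, and within the treated and within the control pair the arrays overlapped. Cxcl10 had another order, with 13.65 ± 0.14 in untreated BN, 13.60 ± 0.18 in treated BN, 13.52 ± 0.32 in treated SD and 12.90 ± 0.12 in untreated SD, where the lowest group alone stood apart.

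The Cy5 level of Cxcl11 was 14.63 ± 0.19 in BN procainamide, 14.43 ± 0.20 in SD procainamide, 14.14 ± 0.11 in SD control and 14.11 ± 0.35 in BN control, each overlapping the next. That of Cxcr3 was 14.33 ± 0.040 in BN procainamide, which stood above the rest, then 13.80 ± 0.18 in SD procainamide, 13.51 ± 0.18 in SD control and 13.40 ± 0.20 in BN control, which overlapped their neighbours.

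Untreated rats of the strains were compared in Cy5, since the strains had different references, and this contrast was not used to choose the genes. Cxcl10 was higher in BN control blood than in SD control blood by 0.75 ± 0.14 in log2 (SE, 1.68-fold, limma adjusted p = 0.000581 over 26496 probes), with all 4 BN arrays above all 5 SD arrays, as for 14.8% of named genes. It was the 1 member of 4 that passed, where 36.8% of named genes did. The BN control arrays were on slide 2 and the SD control arrays on slide 1. The SD procainamide arrays on slide 2 also had higher Cxcl10 than those on slide 1, with mean Cy5 levels of 13.85 against 13.30 and mean Cy3 levels of 13.37 against 12.87. Once scan day was a term, the strain difference was 0.20 ± 0.17 and no longer passed (limma adjusted p = 0.647).

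The other 3 genes gave no strain difference that passed. Cxcl9 differed by -0.33 ± 0.20 between BN and SD controls (95% interval -0.76 to 0.11, limma adjusted p = 0.218). Cxcl11 differed by -0.035 ± 0.14 (-0.34 to 0.26, limma adjusted p = 0.863) and Cxcr3 by -0.10 ± 0.11 (-0.34 to 0.13, limma adjusted p = 0.478).

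The wider CXC family did not move as one. Of 10 other CXC ligands tested, 2 rose and 1 fell in BN, and 1 rose in SD (limma, adjusted over all probes), where 22.8% and 3.18% of named genes were called. Their median response was 0.048 in BN and -0.30 in SD. Cxcl16, the membrane-bound ligand of CXCR6, rose by 0.96 ± 0.13 in BN (1.94-fold, adjusted p = 0.000166) and was 0.33 ± 0.12 higher in SD without passing. Cxcl1, a neutrophil attractant, rose by 1.11 ± 0.29 in BN (adjusted p = 0.0106), and Ppbp, a platelet chemokine, fell by 1.25 ± 0.38 in log2 (adjusted p = 0.0245), a call lost without BN control 1, BN procainamide 1 or BN procainamide 4 (adjusted p up to 0.0767). With array brightness as a term the BN calls of Cxcl1 and Ppbp were lost (limma adjusted p = 0.249 and 0.138). That of Cxcl1 was also lost in Cy5 alone. Cxcl17, a mucosal chemokine, rose by 0.70 ± 0.13 in SD (adjusted p = 0.0103) and was 0.12 ± 0.15 in BN. When scan day was a term, 0 of the 10 passed in BN by limma (1 at an unadjusted p under 0.05) and 1 in SD.

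Among 7 other CXC and atypical chemokine receptors, 1 rose and 2 fell in BN by limma, where 22.8% of named genes were called. None passed in SD, where 3.18% were called (3 of the 7 had an unadjusted p under 0.05 there, 1 higher and 2 lower). Cxcr6, carried like Cxcr3 by activated T and NK cells, rose by 1.46 ± 0.20 in BN (2.75-fold, adjusted p = 0.000137) and was 0.47 ± 0.18 in SD. On every BN procainamide array its log2 ratio was 0.97 or more, against -0.39 to -0.13 on BN control arrays. The scavenger receptor Ackr3, which also binds CXCL11, fell by 0.86 ± 0.13 in log2 in BN (adjusted p = 0.000286). Cxcr4 fell by 0.51 ± 0.18 in log2 with an adjusted p of 0.0498, a call lost in 7 of 8 fits that left out 1 BN array. Cxcr6 alone still passed in BN when scan day was a term.

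Several genes of the interferon gamma pathway, which lies upstream of the ligands, rose in both strains. Of 14 genes of interferon gamma signalling, 5 rose and none fell in BN by limma, where 22.8% of named genes were called. In SD 3 of the 14 rose and none fell, where 3.18% of named genes were called. At an unadjusted p under 0.05, 2 of the 14 were lower in BN and 1 in SD. Their median response was 0.39 in BN and 0.30 in SD. Ifng, the gene of interferon gamma, had log2 ratios of 1.95 to 4.19 on BN procainamide arrays against -0.65 to -0.082 on BN control arrays, and of 1.40 to 3.15 against -0.82 to 0.40 in SD. It rose by 3.43 ± 0.44 in BN (adjusted p = 7.22e-05) and by 2.17 ± 0.39 in SD (adjusted p = 0.00711).

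Irf1, a transcription factor induced by interferon gamma, rose by 1.47 ± 0.13 in BN and 0.89 ± 0.11 in SD (adjusted p = 1.45e-06 and 0.000926). Irf2, the counterpart that competes with Irf1 for its sites, rose by 0.53 ± 0.11 in BN (adjusted p = 0.00275) and by 0.38 ± 0.099 in SD (adjusted p = 0.0487), the latter a call kept in 1 of 10 fits that left out 1 SD array. Stat2, a signalling factor of the interferon receptors, rose by 0.46 ± 0.12 in BN (adjusted p = 0.00871). The BN calls of Irf2 and Stat2 were lost with array brightness as a term (limma adjusted p = 0.101 and 0.243). In a fit with scan day, 1 of the 14 passed in BN (Irf1), with Ifng at 3.08 ± 0.73 (adjusted p = 0.0627), and 2 in SD. The receptor chain genes Ifngr1 (-0.23 ± 0.10 in BN, -0.34 ± 0.094 in SD) and Ifngr2 (0.17 ± 0.081, 0.086 ± 0.072) did not pass. As for Cxcl9, part of the ratio of Irf1 lay in Cy3: its Cy3 level was lower on treated arrays by a difference of -0.77 in BN and of -0.33 in SD. In Cy5 alone Irf1 rose by 0.70 ± 0.098 in BN and 0.56 ± 0.088 in SD. The Cy3 level of Ifng differed by 0.28 in BN and -0.15 in SD, and its Cy5 level rose by 3.70 ± 0.43 and 2.02 ± 0.38.

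Of 12 genes of the Th1 programme that leads to the receptor, 5 rose and 1 fell in BN, and 1 rose in SD (limma). Their median response was 0.21 in BN and 0.087 in SD. Of all named genes 22.8% were called in BN and 3.18% in SD. Tbx21, the T-bet gene, was 0.039 ± 0.13 in BN and 0.11 ± 0.12 in SD and passed in neither. The interleukin-12 receptor chain genes rose in BN, Il12rb2 by 0.76 ± 0.13 (adjusted p = 0.000729) and Il12rb1 by 0.61 ± 0.12 (adjusted p = 0.00194), as did their signalling factor Stat4 by 0.59 ± 0.10 (adjusted p = 0.000621). Il12rb1 rose in SD by 0.47 ± 0.11 (adjusted p = 0.0265), a call lost in 5 of 10 fits that left out 1 SD array and on slide 1 alone (0.49 ± 0.12, adjusted p = 0.0885). Il2, the T cell growth factor gene, rose by 0.36 ± 0.097 in BN (adjusted p = 0.0128), but it was above background on 5 of 18 arrays and its sign turned in Cy5 alone (-0.39). With array brightness as a term the BN calls of Il12rb2, Stat4 and Il2 were lost (limma adjusted p = 0.0864, 0.0691 and 0.373). In the fit with scan day, 0 of the 12 passed in either strain by limma (4 in each at an unadjusted p under 0.05).

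Below the receptor, 1 of 15 genes rose and 1 fell in BN by limma, where 22.8% of named genes were called. In SD none of the 15 passed, where 3.18% of named genes were called (3 of the 15 had an unadjusted p under 0.05). Their median was 0.053 in BN and -0.016 in SD. Itgal, the integrin chain through which CXCR3 signalling helps T cells stick to vessel walls, rose by 0.86 ± 0.27 in BN (adjusted p = 0.0275), and Pik3r5, a subunit of the PI3 kinase that G proteins activate, fell by 0.33 ± 0.11 in log2 (adjusted p = 0.0437). The call of Itgal was lost in 5 and that of Pik3r5 in 6 of 8 fits that left out 1 BN array, and with array brightness as a term they were 0.20 and -0.054. When scan day was a term, 0 of the 15 passed in BN by limma (1 at an unadjusted p under 0.05), and the replicate block also ended the call of Pik3r5 (adjusted p = 0.0704). Dpp4, the protease that trims the ligands, was -0.035 ± 0.14 in BN and -0.33 ± 0.12 in SD without passing.

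**Figure D5:**
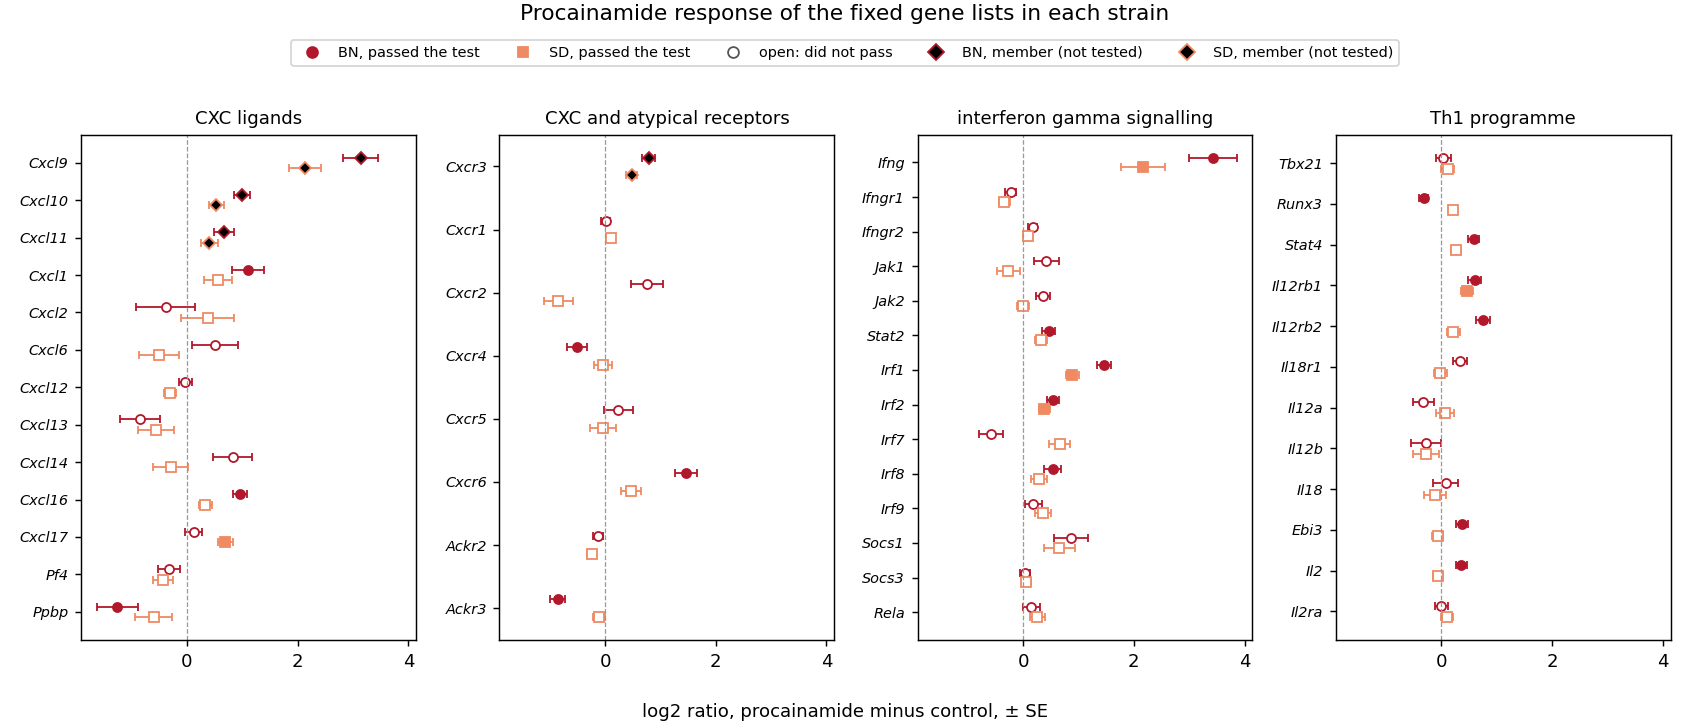
Response to procainamide, as the difference in log2 ratio between treated and control arrays with its SE (x axis), of the genes of 4 lists in BN (circles) and SD (squares). Filled symbols passed limma's test over all probes, open ones did not, and diamonds are the 4 chemokine genes, which were not tested; Ifng and Cxcl9 are the highest points.

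Markers of the cells that carry or make these products were counted in the same way. Of all named genes 22.8% passed in BN and 3.18% in SD, so the counts are read against those shares. Of 14 T cell markers 1 rose in BN (Trat1, 0.97 ± 0.28, adjusted p = 0.0195) and none in SD by limma (2 at an unadjusted p under 0.05). In Cy5 alone Trat1 was -0.039 ± 0.34, and its call was lost in 3 of 8 fits that left out 1 BN array. The mean log2 ratio of the T cell list was -0.36 to -0.024 on BN control and -0.030 to 0.16 on BN procainamide arrays.

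Of 14 NK and cytotoxic markers 3 rose in BN and 2 in SD by limma, with medians of 0.25 and 0.0084. At an unadjusted p under 0.05, 5 were higher and 1 lower in BN, and 3 higher and 2 lower in SD. The NK receptor gene Ncr1 went the other way in SD, with log2 ratios of -1.95 to -0.51 on procainamide and -0.37 to 0.45 on control arrays. Klrc1, an inhibitory NK receptor gene, rose by 1.95 ± 0.22 in BN and 0.80 ± 0.20 in SD (adjusted p = 2.19e-05 and 0.0377). Nkg7, a granule protein gene, rose by 0.72 ± 0.12 and 0.49 ± 0.11 (adjusted p = 0.000613 and 0.0227). Both SD calls were lost with scan day as a term (adjusted p = 0.0831 for Klrc1 and 0.0656 for Nkg7), that of Klrc1 in 7 and that of Nkg7 in 6 of 10 fits that left out 1 SD array, that of Klrc1 with the replicate block (adjusted p = 0.0660) and that of Nkg7 on slide 1 alone (adjusted p = 0.115). List means were -0.48 to 0.00019 on BN control and -0.12 to 0.55 on BN procainamide arrays. In SD they were -0.26 to 0.13 on control and -0.095 to 0.13 on procainamide arrays.

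Of 11 monocyte markers 1 rose in BN (Lyz2, 1.29 ± 0.24, adjusted p = 0.00147), with 0.34 ± 0.13 in Cy5 alone. Of 10 neutrophil markers 1 rose and 1 fell in BN, with a median of 0.70, and of 5 platelet markers 3 fell in BN (Gp1bb, Gp9 and P2ry12). These platelet calls were all lost in Cy5 alone centred on array medians. With array brightness as a term those of Gp1bb and Gp9 were lost, and that of Gp9 also in 3 of 8 fits that left out 1 BN array. Of 7 endothelial markers 3 fell in BN (Cdh5 by 1.22 ± 0.16, Esam by 0.64 ± 0.10 and Kdr by 0.52 ± 0.11 in log2), and the mean of the list was -0.11 to 0.12 on BN control arrays and -0.72 to -0.29 on BN procainamide arrays. In SD 1 endothelial marker fell (Kdr, by 0.51 ± 0.098 in log2), a call lost with scan day as a term (adjusted p = 0.0718) and on slide 1 alone (adjusted p = 0.104), and the mean was -0.17 to 0.047 on control and -0.73 to -0.23 on procainamide arrays. In the scan day fit, 1 NK marker passed in BN (Klrc1) and no marker of the other lists did by limma (6 of those at an unadjusted p under 0.05). The part of cell numbers in the responses of Cxcr3 and its ligands was not tested.

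Likeness across the 18 arrays was measured as the root mean square difference of log2 ratios between a member and each of the other 13651 named genes. The genes nearest to Cxcl9 were Ifng (0.61), Gpr84, a fatty acid receptor of myeloid cells (0.64), and Ass1, the argininosuccinate synthase (0.67). The nearest to Cxcl10 were the CC chemokine Ccl9 (0.18), Raet1l (0.18) and the MHC class I gene RT1-CE5 (0.19). Those nearest to Cxcl11 were Raet1l (0.19), Chn2 (0.20) and Cxcr3 itself (0.20), and those nearest to Cxcr3 were Apol3l1 (0.15), Raet1l (0.15) and the adhesion molecule gene Icam1 (0.18). Cxcl10, Cxcl11 and Cxcr3 lay 0.20 to 0.26 from each other, whereas Cxcl9 lay 1.39 to 1.44 from them. These distances depend on the size of a response as well as its course, and all genes of an array share its hybridisation.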

How the data were processed

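RNA of 18 rat blood samples was measured on 2-colour Agilent arrays. The deposited scanner files hold a Cy3 and a Cy5 signal intensity and a local background intensity per spot, and their log10 ratio of processed signals, per the file headers (scanner software 10.7.1.1). The authors' deposited matrix holds log2 ratios of Cy5 over Cy3. It matched the processed scanner ratios with a slope of 1 and r of 0.999 to 1 per array, so direction and scale are known, and its column medians were -0.014 to 0.0653. The rule by which its rows were chosen is not given in the sources used here. 

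Spot signals and backgrounds (medians over pixels, in place of means) were corrected with normexp (offset 50) and normalized by loess within arrays, control spots at weight 0. Spots of a probe were averaged, leaving out spots with outlier marks (0.0741% of probe values had none left). Cy5 and Cy3 levels were also scaled between arrays by Aquantile. Probes whose Cy5 passed the scanner's background test on 4 or more arrays (26496 of 30367) were fitted with limma 3.58.1 in R 4.3.3 over all 4 groups, with Benjamini-Hochberg adjustment and a threshold of 0.05. A gene was its brightest probe. The script was tested on simulated data. Replicate numbers did not pair samples (correlations of deviations -0.507 to 0.0347 over 9 pairs), so no block was used.

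The 4 genes, the lists and the tests were chosen with earlier results of these data known. The rule named, per list and comparison, up to 4 genes of smallest p among those that passed, and per member the 3 genes most alike. Tbx21, Ifngr1, Ifngr2 and Dpp4, SD values of genes named for BN and the marker genes were named outside it, after their values were seen. Alternatives were other background and loess settings, the processed values, no filter, a replicate block, scan day, array brightness, slide 1 alone, the deposited matrix, each array left out, and Cy5 alone in 2 forms. Lewis rats were not analysed here, and 1 gene of the interferon gamma list is not reported here and is left out of its counts.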

Additional observations from a re-analysis of the deposited data

Results flagged for a closer look

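Over the 4 genes' ratios and dye levels and the ligands' differences from Cxcr3, 60 groups of 4 or 5 arrays were examined and 7 held an array far from the others, where chance alone gives about 1 in 20. Among these, BN control 3 recurred. Its log2 Cy3 level was 13.98 for Cxcl10 and 14.18 for Cxcl11, the highest of its group in both. For Cxcr3 its log2 ratio of -0.33 and its log2 Cy5 level of 13.11 were the lowest. SD control 2 was the lowest SD control for Cxcl10, with a log2 ratio of -0.40 and a log2 Cy5 level of 12.70. BN procainamide 3 had the lowest log2 Cy3 level of Cxcl11 in its group, 13.82.

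The response to procainamide differed between strains for 13 genes of the lists in limma's interaction test. Of these, 8 belong to the chemokine, interferon gamma and Th1 lists and 5 are cell markers. In the same test 10.7% of all named genes were called, and nothing is read from the count of 13. As BN minus SD response in log2, the difference was 0.63 for Cxcl16, 1.60 for Cxcr2, 0.99 for Cxcr6, 0.58 for Irf1 and 0.43 for Il2. It was -0.75 for Ackr3, -1.24 for Irf7 and -0.53 for Runx3. Among the markers it was 1.15 for Klrc1, 1.11 for Ccr2, -0.57 for P2ry12, -1.33 for Cdh5 and -0.47 for Esam. With scan day or array brightness as a term none of the 13 passed. Leaving out single arrays ended the call of Cxcl16 in 8 of 18 fits, of Cxcr6 in 3, of Irf1 in 12, of Il2 in 12, of Ccr2 in 9 and of Esam in 13, and ended none for the other 7.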

How the results depend on the processing

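Cxcl9 kept a positive response in both strains under every alternative run. The Cy5-alone alternatives were chosen after seeing the data; they are given below as the loess and Aquantile form, then the median-centred form. In them the strain difference of Cxcl10 turned to -0.66 in both, the excess over Cxcr3 moved to 0.88 and 0.74 (Cxcl9, BN), 0.97 and 1.12 (Cxcl9, SD), -0.97 and -1.06 (Cxcl10, BN), 0.32 and 0.33 (Cxcl10, SD) and -0.40 and -0.49 (Cxcl11, BN), and the BN response of Cxcl10 was -0.049 in the loess form. Il2 turned to -0.39 and -0.89 in BN and to -0.58 and -1.26 in the strain difference, Trat1 to -0.039 and -0.18 in BN, and in the median-centred form Lyz2 to -0.11 and Gp1bb to 0.053 in BN. With array brightness as a term, the strain difference of Cxcl11 turned to -0.15 and its BN excess over Cxcr3 moved to -0.33. With scan day as a term, the untreated difference of Cxcl10 was 0.20. The causes were not tested, and in BN slide and drug cannot be told apart. Probes called by limma numbered 5768 in BN, 727 in SD, 2952 for the strain difference and 10198 between untreated strains. With brightness they numbered 685, 425, 6 and 2782. With scan day the counts were 211, 254, 0 (1535 at an unadjusted p under 0.05) and 372. Cy5 alone called 10191 and 11833 in BN and 9119 and 10477 for the strain difference. Slide 1 alone called 339 in SD. With the replicate block, although the numbers do not pair the samples, the counts were 4883, 392, 2438 and 9592. Leaving out 1 array gave 235 (without SD control 2) to 960 in SD and 1904 (without BN control 4) to 3829 for the strain difference. The share called higher moved from 35.2% to 46.7% in BN with the deposited matrix. With median-centred Cy5 it moved from 49.5% to 69.6% in SD and from 54.9% to 71.9% between untreated strains, and with loess Cy5 from 23.2% to 43% for the strain difference. Of the 654 values of single genes under the other alternatives, 490 stayed the same, 138 lost the call, 14 moved and 12 turned. For tested genes the same meant the same side of the threshold. For the untested responses of the 4 genes it meant the same direction and a change below the SD within groups. The untreated difference of Cxcl10, the ligands' excess over Cxcr3 and the counts of calls are not among them. The number of arrays limits the precision, and 1 probe per gene leaves no second probe to compare.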
